A study of Homo sapiens with 8 samples.

Results

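The transformed breast epithelial clone trMCF clone 11, grown for 26 days in all-trans retinoic acid (ATRA), was compared with MCF-10F, the line from which it descends, to describe which genes still differed from the parental level after treatment. The 4 arrays of the treated clone (2 at 1 μM and 2 at 10 μM ATRA) were pooled and set against the 2 MCF-10F arrays, so that 6 of the 8 arrays of the series entered the comparison. MCF-10F cells come from human breast epithelium, grow without limit without having been transformed on purpose, and served as the normal reference. The clone is a single one, picked by ring cloning after MCF-10F cells had been exposed to a high dose of estradiol, so that what belongs to this clone and what belongs to the treatment cannot be told apart within this comparison. The 2 arrays of untreated trMCF clone 11 are given beside the results and entered no main test. They entered the alternative fitted on all 8 arrays, the alternative with quantile normalization and the choice of each gene's brightest probe set. Set against MCF-10F they share its 2 arrays with the treated clone. The labels do not state whether the untreated cells received the DMSO vehicle, and untreated replicate 1 is tagged as normal in disease state although its title names the clone, which was followed. Nothing tells whether a pair of arrays came from 1 culture or from 2, so each p-value measures the spread between arrays, which may be technical.

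Signals are log2 values of the deposited intensities, on which an increase of 1 is a doubling, and a gene is represented by its brightest probe set that names that gene alone. A gene was counted as higher or lower when the adjusted p from limma (Benjamini-Hochberg over all 54613 probe sets) was under 0.05 and the difference was at least 2-fold. Words such as fell, rose and after ATRA compare the treated clone with MCF-10F, not with the untreated clone. Where the untreated level is not given, such a difference may have been present without ATRA. Array medians lay between 47.3 and 48.8 on the linear scale. The treated arrays resembled each other more than the MCF-10F arrays did: the root mean square log2 difference was 0.215 to 0.277 among the 4 treated arrays, 0.440 between the MCF-10F arrays and 0.497 to 0.536 from a treated array to an MCF-10F array. Between the MCF-10F arrays 3.48% of probe sets were more than 2-fold apart, against 0.126% at 1 μM, 0.211% at 10 μM and 7.71% between the untreated clone arrays. The fit treats the 4 treated arrays as independent, although the 1 and 10 μM arrays of the same replicate number deviated together (correlation 0.595), so that its p-values may be too small. Between 10 and 1 μM, limma found 0 of 54613 probe sets at an adjusted p under 0.05 and 1891 at an unadjusted p under 0.05.

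ATRA, the acid form of vitamin A, enters the nucleus and binds the retinoic acid receptors RARA, RARB and RARG, which pair with the retinoid X receptors on DNA. Its direct targets include the CYP26 enzymes that break ATRA down and DHRS3, which turns retinal back to retinol, so that the pathway limits its own signal. In keratinocytes and breast epithelium retinoids are known to lower squamous differentiation and to change the keratins and matrix proteins that a cell makes.

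Of 19775 genes, 207 were higher in the ATRA-treated clone than in MCF-10F (1.05%) and 544 were lower (2.75%). Together these were 751 genes (3.8%). The shares of 1.05% higher and 2.75% lower are the background for every count of a gene list below. In all 751 the 4 treated arrays did not overlap the MCF-10F arrays, both doses differed from MCF-10F in the same direction in all 751, and 653 passed 2-fold at each dose. The call used these same arrays and makes such a lack of overlap and a shared direction likely, so neither is separate support. At least 4-fold differences were found for 40 higher and 165 lower genes, and at least 16-fold ones for 1 higher and 21 lower genes. In 52 of the 751 the dimmer group had a mean signal under 16, so the size of those differences is uncertain. The excess of lower genes depended on the fold limit: with the adjusted p alone 1208 genes were higher and 1344 lower. With an unadjusted p under 0.05 and 2-fold, 231 genes (1.17%) were higher and 629 (3.18%) lower, and over probe sets rather than genes the counts were 471 (0.862%) and 1115 (2.04%). With the treated arrays of the same replicate number averaged over the doses, leaving 2 averages against 2 MCF-10F arrays, 81 genes were higher and 206 lower, and 69 of the 118 called genes among those named by rule did not pass. The lower genes then included 10 of the interstitial matrix list, 4 mesenchymal genes, 1 p53 target and no cytokine gene of the lists described below, and 2 retinoid targets were higher. The MCF-10F arrays themselves lay more than 2-fold apart in 121 of the lower and 31 of the higher genes. Of the 118 called genes named by rule, 66 had several probe sets, and in 31 of those every probe set passed. In 0 of the 118 did a probe set pass in the opposite direction.

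Matrix and mesenchymal genes held several of the largest differences. Periostin (POSTN), a secreted matrix protein, was at 11.95 and 11.18 in MCF-10F and at 3.21 to 3.34 in the treated arrays. It was therefore near the lower end of the signal range in all 4 treated arrays and far above them in both MCF-10F arrays. The difference was -8.29 ± 0.19 (SE, log2; 314-fold, adjusted p = 1.57e-06), and the untreated clone, at 3.26 and 3.24, was as low as the treated clone. Fibronectin (FN1), the adhesive glycoprotein on which integrins pull, read 13.85 and 13.85 in MCF-10F and 6.09 to 6.62 in the treated arrays. The gap, -7.52 ± 0.15 (183-fold, adjusted p = 1.41e-06), was many times the spread within each group, and all 7 FN1 probe sets passed the test. The untreated clone read 5.95 and 5.79 for FN1. EDIL3, an integrin ligand, fell by 6.31 on the log2 scale from 9.86 and 8.93 to between 2.96 and 3.16. Fibrillin-1 (FBN1), the scaffold of microfibrils, read 11.44 and 10.23 in MCF-10F and 6.15 to 6.51 in the treated arrays. COL8A1, a short-chain collagen, read 10.57 and 9.18 against 6.18 and 6.11 at 1 μM and 4.67 and 4.19 at 10 μM. For EDIL3, FBN1 and COL8A1 the untreated clone had means of 3.06, 5.74 and 5.57. In each of these genes the groups were apart without overlap. Without MCF-10F replicates 1 and 2 in turn, the difference was -3.96 and -5.18 for FBN1 and -3.89 and -5.29 for COL8A1. SRGN, the core of a secreted proteoglycan, fell by 5.14 from 11.99 and 11.61 to between 6.15 and 7.21, with the untreated clone at 6.63 and 7.61. CEP15, at 8.46 and 7.28 in MCF-10F, read 3.32 to 3.46 in the treated arrays and 3.37 and 3.33 in the untreated clone (-4.47; -3.88 and -5.06 without replicates 1 and 2). BBOX1, which makes carnitine, read 6.35 and 10.12 in MCF-10F and 3.35 to 3.47 after ATRA, so that its difference of -4.80 became -6.68 without MCF-10F replicate 1 and -2.92 without replicate 2. In the untreated clone BBOX1 read 5.08 and 6.33.

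Of 44 measured genes of the interstitial matrix, 17 were lower (38.6%, against 2.75% of all genes), 1 was higher and the median difference was -0.88 against 0.03 over all genes (-0.24 without probe sets that share targets and -0.44 with the mean of each gene's probe sets). COL1A1 and COL1A2, the chains of type I collagen, fell by 3.18 and 2.49 on the log2 scale, the first by 2.55 or 3.81 without MCF-10F replicate 1 or 2. Of 5 COL1A1 probe sets 2 passed, at -3.18 and -1.7, and the others differed by -0.92, -0.05 and 0.20 without passing. Means in the untreated clone were 8.47 for COL1A1 and 5.01 for COL1A2, against 6.58 and 5.08 in the treated arrays. The large proteoglycan VCAN fell by 4.26 and tenascin (TNC) by 3.42. The crosslinking enzymes LOX and LOXL2 fell by 1.67 and 1.37. Thrombospondin (THBS1) read 12.32 and 10.43 in MCF-10F and 9.29 to 10.07 in the treated arrays and did not pass (adjusted p = 0.0574). The collagens COL6A1, COL6A2 and COL5A1 differed by 0.12, 0.05 and -0.03. Matrix Gla protein (MGP), an inhibitor of calcification, was the gene that rose, by 1.99 ± 0.40 (adjusted p = 0.0202), and without either 10 μM array no member of the list rose. The lower count was 10 with signals under 16 raised to 16 and 11 with the 10 μM arrays alone. Among 19 basement membrane genes 3 were lower, COL7A1 (-2.01), COL4A6 (-1.55) and COL4A5 (-1.49), and without MCF-10F replicate 2 there were 6.

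The mesenchymal list went the same way, with 9 of 19 genes lower (47.4%), none higher and a median of -1.06 (-0.57 and -1.71 without MCF-10F replicates 1 and 2). Vimentin (VIM), the intermediate filament of mesenchymal cells, read 13.15 and 11.49 in MCF-10F, 6.82 and 7.55 at 1 μM and 7.91 and 7.87 at 10 μM. The treated arrays lay below both MCF-10F arrays by -4.78 ± 0.46 (27.5-fold, adjusted p = 0.00116), and the difference was -3.95 without MCF-10F replicate 1 and -5.61 without replicate 2. The untreated clone lay in between, at 9.21 and 10.08. N-cadherin (CDH2) was lower than in MCF-10F by 2.05, at 10.21 and 9.20 there and 7.34 to 7.87 in the treated arrays. For CDH2 the untreated clone, at 5.45 and 5.52, lay below the treated arrays, a contrast that was not tested. The transcription factors TWIST2 (-2.02), TCF4 (-1.99), PRRX1 (-1.98), ZEB1 (-1.54) and TWIST1 (-1.21), the kinase AXL (-2.63) and S100A4 (-2.13) were also lower. SNAI2 (-1.06, adjusted p = 0.155), SNAI1 (-0.05) and ZEB2 (-0.42) did not pass. The count was 4 with the 1 μM arrays alone and 5 with the 10 μM arrays alone. Of 8 fibroblast markers 2 were lower, COL1A1 and COL1A2, while COL3A1 was near background, at 4.29 and 4.40 in MCF-10F and 3.87 to 4.17 in the treated arrays. For COL1A1 that call depends on the probe set, since 2 of 5 passed. The mean log2 signal of those 8 markers was 5.91 to 6.10 in MCF-10F and 5.17 to 5.33 in the treated arrays; its part in the matrix result was not tested. In RNA from a whole culture, fewer cells making a transcript and less RNA per cell cannot be told apart.

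**Figure D1:**
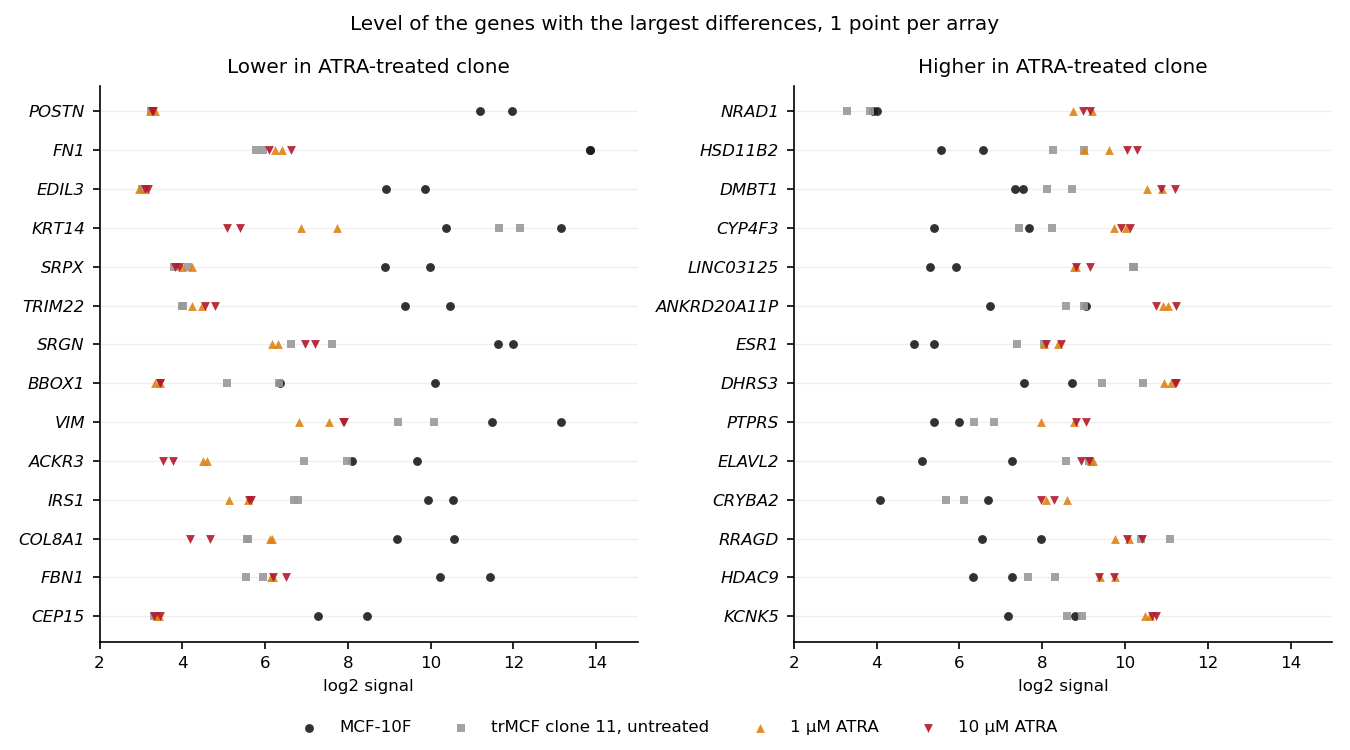
Log2 signal on each array for the 14 genes with the largest lower and the 14 with the largest higher differences (1 point per array; black, MCF-10F; grey, untreated trMCF clone 11; orange, 1 μM ATRA; red, 10 μM ATRA). POSTN, FN1, EDIL3 and CEP15 of the untreated clone lie with the treated arrays, whereas KRT14 of the untreated clone lies with MCF-10F.

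Genes whose proteins cut the matrix and hold the cell to it were lower more often than higher, as was true of all genes. Among 25 genes of proteases and inhibitors 6 were lower (24%, against 2.75% of all genes) and 2 higher (8%, against 1.05%). With the 1 μM arrays alone 3 were lower. The protease inhibitor SERPINE2 was lower by 3.35 ± 0.25 (10.2-fold, adjusted p = 0.000395), at 13.22 and 12.70 in MCF-10F and 9.07 to 9.90 in the treated arrays. It was already at 9.61 and 9.77 in the untreated clone. MMP2, a gelatinase, read 9.11 and 9.45 in MCF-10F, 10.44 and 9.34 in the untreated clone, 7.58 and 7.65 at 1 μM and 7.21 and 7.06 at 10 μM. The treated arrays alone were low for MMP2 among the 8 arrays. Of 3 MMP2 probe sets 1 passed, and the others differed by 0.004 and 0.21. Matrilysin (MMP7) fell by 1.99, and the membrane-bound metalloprotease ADAM12 rose by 1.59 from 8.81 and 8.81 to between 10.22 and 10.61. Of 17 integrin genes 3 were lower (17.6%), ITGAV (-1.11), ITGB8 (-1.16) and ITGA6 (-1.04), and none was higher. With the 1 μM arrays alone 1 gene passed. ITGB8 did not pass without 10 μM replicate 1 (adjusted p = 0.0538) and was under 2-fold without MCF-10F replicate 2 (-0.80), and ITGA6 was just under 2-fold without 10 μM replicate 2 (-0.99).

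Several keratins and other genes of the basal and squamous cell were lower in the treated clone while the untreated clone stood at or above MCF-10F; that contrast with the untreated clone was not tested. KRT14, the basal keratin that pairs with KRT5, read 13.16 and 10.38 in MCF-10F, 11.66 and 12.15 in the untreated clone, 7.73 and 6.86 at 1 μM and 5.40 and 5.09 at 10 μM. The 4 treated arrays lay below all others, and the MCF-10F arrays were far apart. The difference from MCF-10F was -5.50 ± 0.90 (45.2-fold, adjusted p = 0.00953), -4.11 without MCF-10F replicate 1 and -6.89 without replicate 2. KRT16, a keratin of activated keratinocytes, read 12.28 and 10.99 in MCF-10F, a mean of 12.04 in the untreated clone and 7.74 to 8.49 in the treated arrays. That difference was -3.55 ± 0.36 (adjusted p = 0.00147), or -2.90 and -4.19 without MCF-10F replicates 1 and 2. KRT5 read 13.90 and 12.25 in MCF-10F against 11.29 to 12.10 and did not pass (-1.33, adjusted p = 0.0966), with -0.51 (adjusted p = 0.356) without MCF-10F replicate 1 and -2.16 (adjusted p = 0.00458) without replicate 2. KRT14 and KRT16 resemble each other and other type I keratins, so their probes may share signal. Of 13 basal genes 3 were lower, KRT14, KRT16 and ITGA6, and without MCF-10F replicate 2 there were 5; with the 1 μM arrays alone there was none.

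DSC3 and DSC2, members of the desmosomal cadherins that glue keratinocytes together, lie beside CDH2 on chromosome 18, and these 3 neighbours were all lower. DSC3 read 8.89 and 9.28 in MCF-10F, 10.90 and 10.77 in the untreated clone, 7.12 and 6.58 at 1 μM and 5.60 and 5.56 at 10 μM. Its difference from MCF-10F was -2.87 ± 0.43 (7.3-fold, adjusted p = 0.00662), while the untreated clone was above MCF-10F. DSC2 differed by -1.08 (-0.97 without MCF-10F replicate 2, under 2-fold). Among 30 junction genes 4 were lower (13.3%) and none higher, with a median of -0.02, and without either 10 μM array 2 were lower. E-cadherin (CDH1), the main adhesion molecule of epithelium, read 12.41 and 12.52 against 12.13 to 12.33, a difference of -0.21 ± 0.11 (95% interval -0.45 to 0.03). CLDN1, a tight junction claudin, differed by -1.10 and did not hold without 10 μM replicate 1 (adjusted p = 0.0526), 10 μM replicate 2 (adjusted p = 0.0555) or MCF-10F replicate 2 (-0.70). The simple-epithelial keratins KRT8 and KRT18 differed by -0.23 (adjusted p = 0.491) and -0.31 (adjusted p = 0.103).

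Of 40 genes of squamous differentiation 6 were lower (15%) and 4 higher (10%). The small proline-rich proteins, crosslinked into the cornified envelope, form a run of 4 neighbours on chromosome 1 that were all lower: SPRR1A (-2.24), SPRR3 (-2.77), SPRR1B (-3.22) and SPRR2B (-2.54). SPRR1B read 9.67 and 10.95 in MCF-10F, 10.92 and 10.46 in the untreated clone and 6.13 to 7.65 in the treated arrays, and its difference was -3.86 and -2.58 without MCF-10F replicates 1 and 2. SPRR3, in contrast, was already at 6.27 and 5.85 in the untreated clone, against 8.15 and 9.09 in MCF-10F and 5.24 to 6.56 after ATRA. CLCA2, a membrane protein of stratified epithelium, read 5.90 and 7.68 in MCF-10F, 11.39 and 12.05 in the untreated clone and 3.18 to 3.55 in the treated arrays. It thus fell by 3.40 relative to MCF-10F (-4.29 and -2.50 without replicates 1 and 2), and the treated arrays were near the lower end of the signal range. KRT13, a keratin of wet stratified epithelium that retinoids are known to raise, rose by 1.99 ± 0.17 (adjusted p = 0.000738) from 6.31 and 5.82 to between 7.92 and 8.32. The kallikreins KLK10 (2.35) and KLK6 (1.40) and the transglutaminase TGM5 (by 2-fold) rose as well, and KLK7 (-1.78) and involucrin (IVL, -1.71) fell. TGM5 was under 2-fold without 10 μM replicate 1 (0.96), 1 μM replicate 1 (0.98) or MCF-10F replicate 1 (0.89). S100A8 read 7.49 and 14.04 in the MCF-10F arrays and 6.67 to 7.57 after ATRA, so that no difference could be called (adjusted p = 0.153). The lower count was 15 without MCF-10F replicate 1, 3 with the 10 μM arrays alone and 0 with the 1 μM arrays alone; the higher count was 2 without 10 μM replicate 1 or either 1 μM array. Several SPRR probe sets can detect more than 1 family member.

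Metallothioneins, small proteins that bind zinc and copper, formed the longest run: MT2A, MT1E, MT1M, MT1F, MT1G, MT1H and MT1X, 7 neighbours on chromosome 16, were all lower by -1.07 to -1.48. MT1M was near background, at 4.93 and 4.02 in MCF-10F, 3.72 and 3.66 in the untreated clone and 3.21 to 3.55 after ATRA. MT1X read 13.77 and 13.42 in MCF-10F, 13.64 and 13.79 in the untreated clone, 12.65 and 12.41 at 1 μM and 12.04 and 11.38 at 10 μM. MT2A read 14.20 and 13.83, then 13.98 and 14.05 in the untreated clone, 13.23 and 13.03 at 1 μM and 12.68 and 12.21 at 10 μM. In both genes the 10 μM arrays were the lowest, and the untreated clone lay within the MCF-10F range or barely above it. These genes are near-identical and most of their probe sets are not specific, so they are not independent measurements. The calls were also fragile: without MCF-10F replicate 1 or without 10 μM replicate 1, 6 of the 7 did not pass, all but MT1G.

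**Figure D2:**
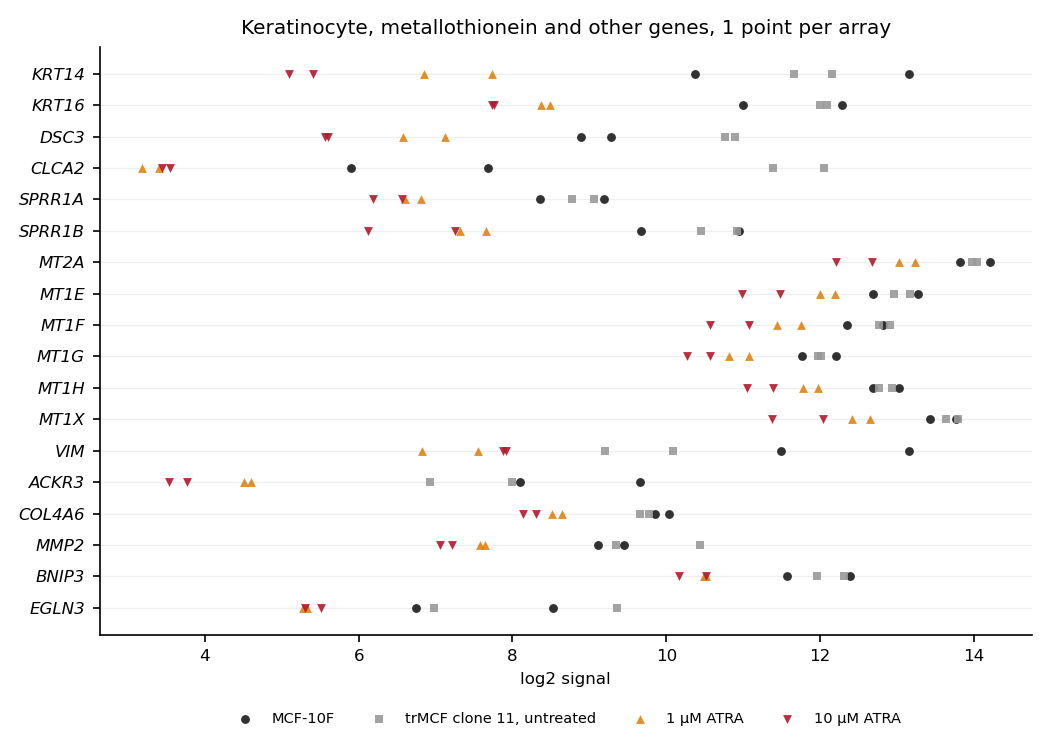
Log2 signal on each array for 18 genes (chosen after their values were seen) of keratinocytes, of the metallothionein run and of other kinds, with 1 point per array and the same colours and shapes for the groups. For KRT14, KRT16, DSC3, CLCA2 and the 6 metallothioneins shown the untreated clone (grey) overlaps MCF-10F (black) or lies above it, and the treated arrays (orange and red) lie below both, while VIM of the untreated clone lies in between.

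Chemokine genes, some of whose products draw neutrophils, lie together on chromosome 4, and 6 neighbours there were all lower: PF4V1, CXCL1, PF4, PPBP, CXCL5 and CXCL3. The promoters of CXCL1, CXCL3, CXCL5 and the nearby CXCL8 hold letters of the kind that NF-κB, the factor inflammatory cytokines switch on, is known to bind. The letters GGAATTTCC, searched on both strands and picked after the values were seen, occur in 0.56% of 27305 RefSeq promoters (250 bases before to 50 after the start, GRCh38.p14), in 9 of 23 cytokine genes with a promoter there and in 4 of the 5 that were lower. Those 4 promoters are shown with the match in capitals, 5′ to 3′ on the strand of the gene:
CXCL8 (chr4:73740319-73740618, plus strand): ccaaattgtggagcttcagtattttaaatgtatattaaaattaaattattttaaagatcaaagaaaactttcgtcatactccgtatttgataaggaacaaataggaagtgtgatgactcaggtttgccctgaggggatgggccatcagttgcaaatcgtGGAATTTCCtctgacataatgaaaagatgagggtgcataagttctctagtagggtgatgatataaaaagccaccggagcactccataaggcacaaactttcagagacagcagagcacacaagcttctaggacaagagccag
CXCL1 (chr4:73869143-73869442, plus strand): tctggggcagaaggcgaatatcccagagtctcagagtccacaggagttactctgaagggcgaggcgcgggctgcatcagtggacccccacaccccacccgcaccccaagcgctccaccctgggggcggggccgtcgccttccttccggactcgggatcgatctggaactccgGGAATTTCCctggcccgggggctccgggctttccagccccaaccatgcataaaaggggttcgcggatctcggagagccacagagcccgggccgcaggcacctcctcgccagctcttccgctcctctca
CXCL5 (chr4:73998628-73998927, minus strand): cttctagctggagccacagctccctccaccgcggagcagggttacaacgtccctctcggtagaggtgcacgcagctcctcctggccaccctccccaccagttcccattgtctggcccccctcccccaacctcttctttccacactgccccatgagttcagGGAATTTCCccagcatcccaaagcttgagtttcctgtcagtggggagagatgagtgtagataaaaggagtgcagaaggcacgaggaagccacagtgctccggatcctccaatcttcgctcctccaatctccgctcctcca
CXCL3 (chr4:74038640-74038939, minus strand): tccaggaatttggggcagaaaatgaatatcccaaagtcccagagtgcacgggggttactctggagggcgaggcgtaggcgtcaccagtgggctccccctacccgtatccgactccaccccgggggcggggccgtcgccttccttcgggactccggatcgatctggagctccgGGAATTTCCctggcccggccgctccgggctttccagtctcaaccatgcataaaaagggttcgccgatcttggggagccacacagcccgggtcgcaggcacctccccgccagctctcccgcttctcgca
The match lay 91 to 83 bases before the start of CXCL8, 78 to 70 before those of CXCL1 and CXCL3 and 90 to 82 before that of CXCL5. It is a match of letters, not a measured binding site.

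CXCL1 read 10.87 and 12.69 in MCF-10F, 9.57 and 8.04 in the untreated clone and 7.82 to 8.27 in the treated arrays. The treated arrays lay below both MCF-10F arrays (-3.76 ± 0.42, 13.5-fold, adjusted p = 0.00205), and the difference was -4.67 without MCF-10F replicate 1 and -2.85 without replicate 2. CXCL5 read 11.29 and 12.29 against 8.84 to 9.13, a difference of -2.77 ± 0.25 (6.8-fold, adjusted p = 0.000837), with the untreated clone at 8.04 and 8.50. Interleukin 8 (CXCL8) read 10.34 and 12.79 against 7.84 and 7.95 at 1 μM and 8.50 and 8.58 at 10 μM. MCF-10F replicate 2 was the higher of the pair in all 3, and the CXCL8 difference was -4.57 without replicate 1 and -2.12 without replicate 2. PPBP, a platelet chemokine, fell by 4.37 from 6.82 and 8.15 to between 2.95 and 3.22 (-5.03 and -3.71 without MCF-10F replicates 1 and 2). It was already at 3.33 and 3.12 in the untreated clone. PTGS2, the inducible enzyme of prostaglandin synthesis, read 7.78 and 10.61 against 5.79 to 6.55, a difference of -3.07 that was -4.49 and -1.65 without MCF-10F replicates 1 and 2. CXCL6 read 4.78 and 10.09 in the MCF-10F arrays and 3.47 to 3.75 after ATRA and was not called (adjusted p = 0.0819). Of 29 cytokine genes 5 were lower (17.2%) and none higher; without MCF-10F replicate 1 there were 10, and without any 1 of the treated arrays 3, since CXCL3 (adjusted p = 0.0665 to 0.0712) and PTGS2 (0.0558 to 0.0713) then did not pass. The count was 1 with either dose alone and 2 with signals under 16 raised to 16. PF4V1 did not pass then either. Interleukins 1 and 6 differed little: IL1A by -0.38, IL1B by -0.31 and IL6 by -0.14, none past the test. ACKR3, a receptor that removes CXCL12, read 8.09 and 9.66 in MCF-10F, 7.99 and 6.93 in the untreated clone, 4.51 and 4.60 at 1 μM and 3.53 and 3.77 at 10 μM (-4.77 ± 0.45, adjusted p = 0.00108; -5.56 and -3.99 without MCF-10F replicates 1 and 2).

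Interferon-stimulated genes were mixed, with 5 of 46 lower (10.9%), 2 higher and a median of -0.14. TRIM22, an antiviral ubiquitin ligase, read 9.38 and 10.47 in MCF-10F and 4.25 to 4.79 in the treated arrays. The groups were far apart (-5.42 ± 0.28, 42.7-fold, adjusted p = 9.4e-05), and the untreated clone, at 3.99 and 4.02, was lower still. IFI44L (-1.98), IFITM1 (-2.02), ISG20 (-1.51) and EPSTI1 (-1.43) were lower too, and most members with a promoter in RefSeq carry the letters of the interferon-stimulated response element, TTTC, any 2 bases and TTTC, searched on both strands. Those letters were found in 4.38% of all 27305 promoters, in 27 of 37 genes of the list (73%) and in the 4 lower genes with a promoter there. The matches are shown in capitals with 8 bases on each side, 5′ to 3′ on the strand of the gene, where they read GAAA, any 2 bases and GAAA; IFI44L and IFITM1 hold 2 matches each, of which 1 is shown:
IFI44L (chr1:78620276-78620301, plus strand): ctagtgagGAAAAAGAAAgttagtgg
IFITM1 (chr11:313992-314017, plus strand): aacagcagGAAATAGAAActtaagag
ISG20 (chr15:88638939-88638964, plus strand): acaaactaGAAACTGAAAcagggtcg
EPSTI1 (chr13:42992274-42992299, minus strand): gattctgaGAAACCGAAActcagctg
Other interferon genes with such letters did not pass: MX1 differed by 0.25, ISG15 by -0.48 and IFIT1 by -0.30. IFIT2 (1.53) and LY6E (1.15) were higher, and neither passed when all 8 arrays were fitted. The lower count was 8 without MCF-10F replicate 1, and the higher count was 5 without MCF-10F replicate 2. In antigen presentation 20 of 23 genes differed by more than 0 and 3 by less, whereas 45% of all genes were below 0. PSMB9, an immunoproteasome subunit, was the 1 gene that passed. It rose by 1.96 ± 0.18 (3.89-fold, adjusted p = 0.000952) from 6.43 and 7.10 to between 8.63 and 8.88. Without MCF-10F replicate 2 there were 3. PSMB10 differed by 0.83 (adjusted p = 0.00326, under 2-fold) and HLA-B by 0.41 (adjusted p = 0.0547).

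Targets of the retinoid receptors were among the genes that rose, with 7 of 27 higher (25.9%, against 1.05% of all genes), 1 lower and a median of 0.36 (0.12 without MCF-10F replicate 1). DHRS3 read 7.56 and 8.73 in MCF-10F, 10.44 and 9.45 in the untreated clone and 10.95 to 11.23 in the treated arrays. All 4 treated arrays were above the others, by 2.98 ± 0.28 relative to MCF-10F (7.89-fold, adjusted p = 0.00101). CYP26B1, which oxidises ATRA, read 8.85 and 8.60 in MCF-10F, 7.72 and 8.09 in the untreated clone and 10.43 to 10.89 after ATRA (1.99 ± 0.16, 3.97-fold, adjusted p = 0.00051). The other CYP26B1 probe set differed by 0.09 without passing. CYP26A1, the related enzyme, gave a dimmer signal, at 4.37 and 4.38 in MCF-10F, 5.52 and 5.33 at 1 μM and 6.11 and 5.87 at 10 μM. It rose by 1.33 ± 0.21 (adjusted p = 0.00759). Signals of different probe sets do not compare the levels of different genes. The CYP26A1 promoter carries a pair of receptor core sequences 5 bases apart in the same orientation, searched on both strands. A core could read AGGTCA, the classical form, or it could read AGTTCA, the form found here, and with an opening G it could read GGGTCA or else it could read GGTTCA. It is shown with that element in capitals, from 250 bases before to 50 after the start, since CYP26A1 is a well known direct target; the element was found in 1 of 164 higher genes with a promoter, in 1 of 427 lower genes (CYB5R2) and in 29 of 27305 promoters (0.106%), and the same cores 2 bases apart were found in 0 of the 164 and in 14 of all promoters (0.0513%):
CYP26A1 (chr10:93073643-93073942, plus strand): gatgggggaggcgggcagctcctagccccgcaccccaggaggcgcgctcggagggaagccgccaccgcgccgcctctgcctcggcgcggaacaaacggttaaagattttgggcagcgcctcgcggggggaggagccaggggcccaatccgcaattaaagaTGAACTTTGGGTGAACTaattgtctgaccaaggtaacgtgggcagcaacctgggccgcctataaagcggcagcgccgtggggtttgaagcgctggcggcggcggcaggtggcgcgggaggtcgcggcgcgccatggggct
The element lay 90 to 74 bases before the start, on the strand opposite to the gene. RARB, whose promoter holds the same element, read 5.14 and 5.19 in MCF-10F and 5.14 to 5.42 after ATRA, a difference of 0.09 ± 0.11 (adjusted p = 0.723).

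IGFBP6 (1.42), ELF3 (1.43), FOXA1 (1.05) and NR2F1 (1.03) were the other retinoid targets that rose. NR2F1 read 7.95 and 7.45 in MCF-10F, 5.65 and 6.42 in the untreated clone and 8.27 to 9.09 after ATRA, and its call did not hold without 10 μM replicate 1 (adjusted p = 0.0803), 10 μM replicate 2 (0.069), 1 μM replicate 2 (0.0795) or MCF-10F replicate 2 (0.112). ELF3 read 8.96 and 10.05 in MCF-10F, 11.20 and 9.62 in the untreated clone and 10.82 to 11.06 after ATRA, so that 1 untreated array was above all treated ones. Its difference was under 2-fold without MCF-10F replicate 1 (0.89). TGFB2, an isoform of the growth factor TGF-β, read 8.75 and 9.49 in MCF-10F, 4.56 and 5.81 in the untreated clone and 6.84 to 7.47 after ATRA. The treated arrays were thus below MCF-10F (-1.99) and above the untreated clone, a contrast that was not tested. Transglutaminase 2 (TGM2) differed by -0.37 (adjusted p = 0.515) and the binding protein CRABP2 by -0.44 (adjusted p = 0.399). The higher count was 4 when all 8 arrays were fitted, 2 with the 1 μM arrays alone, 3 with the 10 μM arrays alone and 2 with signals under 16 raised to 16. Of 21 receptors and metabolic enzymes, the retinal dehydrogenase ALDH1A1 was higher (1.61) and FABP5, a carrier that takes ATRA to another nuclear receptor, was lower by 2.37 ± 0.18 (5.17-fold, adjusted p = 0.000491), from 11.76 and 12.48 to between 9.68 and 9.83. ALDH1A1 did not pass without 10 μM replicate 1 (adjusted p = 0.0547), 10 μM replicate 2 (0.0647) or 1 μM replicate 2 (0.0605), and was under 2-fold without MCF-10F replicate 1 (0.96). ALDH1A3 read 12.04 and 12.02 in MCF-10F, 10.67 and 10.03 in the untreated clone and 12.43 to 12.94 after ATRA, a difference of 0.67 that was under 2-fold. The receptors RARA, RARG and RXRA differed by 0.39, 0.02 and -0.14, and none passed the test.

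**Figure D3:**
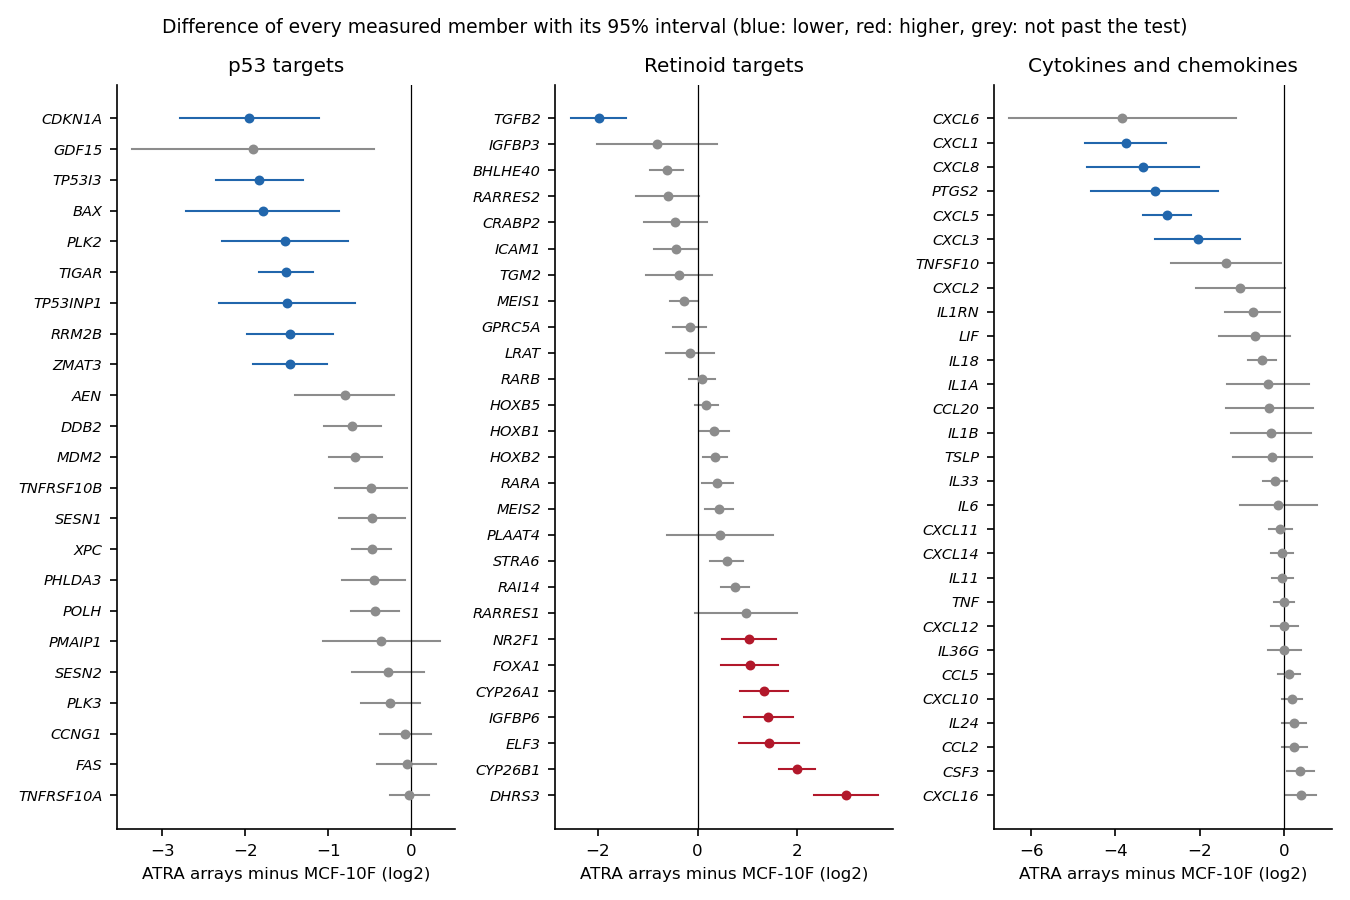
Difference between the 4 treated arrays and the 2 MCF-10F arrays (log2) for every measured member of 3 gene lists, with its 95% interval from limma (blue, lower; red, higher; grey, not past the adjusted p and 2-fold). All 23 p53 targets lie left of 0, 7 retinoid targets are red with DHRS3 at 2.98, and the lower cytokine genes are 4 CXCL chemokines and PTGS2.

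Some genes of the luminal cell were higher, 5 of the 25 listed, while the median of that list was 0.07. ESR1, the estrogen receptor, read 5.40 and 4.91 in MCF-10F, 7.38 and 8.04 in the untreated clone and 8.04 to 8.44 in the treated arrays. The treated arrays lay above both MCF-10F arrays by 3.08 ± 0.18 (8.48-fold, adjusted p = 0.000131). This rests on the brightest of 9 ESR1 probe sets: it was the only one that passed, 2 differed in the other direction without passing, and the mean over the 9 differed by 0.41. HSD11B2, which inactivates cortisol, rose by 3.68 ± 0.38 (12.8-fold) from 5.56 and 6.56 to 9.01 and 9.61 at 1 μM and 10.05 and 10.29 at 10 μM, with the untreated clone at a mean of 8.63. DMBT1, a secreted mucosal scavenger protein, read 7.54 and 7.33 in MCF-10F, 8.73 and 8.13 in the untreated clone and 10.54 to 11.21 after ATRA. The long noncoding RNA NRAD1 showed the largest rise. It read a mean of 3.96 in MCF-10F, 3.85 and 3.29 in the untreated clone and 8.74 to 9.21 in the treated arrays, a difference of 5.06 ± 0.15 (33.4-fold, adjusted p = 6.07e-06). Both untreated lines were thus near the lower end of the signals and all 4 treated arrays were well above them. The luminal genes that rose (20%) were DMBT1, ESR1, ELF3, FOXA1 and KRT80 (1.21), and AGR2 was lower (-2.77); 3 were higher without MCF-10F replicate 1, with either dose alone and when all 8 arrays were fitted. ELF3 and FOXA1 are also on the list of retinoid targets. AGR2 did not pass without 10 μM replicate 1 or either 1 μM array. GATA3 (0.36) and KRT7 (0.48) did not pass.

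Estrogen response genes and steroid enzymes were mixed. Among 24 genes 2 were higher, ESR1 and MYB (1.09), 4 were lower, PKIB, EGR3, CA12 and SULT1E1, and the median was -0.02; 1 lower gene passed without either 10 μM array or without 1 μM replicate 1, and 2 without 1 μM replicate 2. PKIB read 11.29 and 10.87 in MCF-10F, 7.07 and 5.35 in the untreated clone and 8.13 to 8.45 after ATRA (-2.78 ± 0.15, adjusted p = 9.52e-05). PGR and TFF1 differed by 0.17 and 0.10. The other genes with the largest rises were CYP4F3, which inactivates leukotriene B4 (3.41), LINC03125 (3.29), ANKRD20A11P (3.09), the receptor phosphatase PTPRS (2.96), the neuronal RNA-binding protein ELAVL2 (2.94), CRYBA2 (2.86), the nutrient-sensing GTPase RRAGD (2.83), the deacetylase HDAC9 (2.77) and the potassium channel KCNK5 (2.64). For CYP4F3 the MCF-10F arrays read 5.39 and 7.68, and the difference was 2.27 without replicate 1 and 4.55 without replicate 2. ANKRD20A11P, ELAVL2, CRYBA2, RRAGD and KCNK5 also moved by more than 1.5-fold with the choice of MCF-10F array (1.94 and 4.24, 4.02 and 1.85, 4.16 and 1.56, 2.12 and 3.54, 1.82 and 3.45 without replicates 1 and 2), and CRYBA2 did not pass without any 1 of the treated arrays (adjusted p = 0.0581 to 0.0662). LINC03125 was higher in the untreated clone (10.21 and 10.19) than after ATRA (8.77 to 9.14), and RRAGD, at 11.08 and 10.38 in the untreated clone, had a mean of 10.08 after ATRA.

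In the TGF-β and BMP family the inhibitors of differentiation ID1, ID2 and ID3 were above MCF-10F, while most members of the list were below it. ID2, which blocks basic helix-loop-helix factors, read 8.33 and 8.83 in MCF-10F, 12.19 and 10.91 in the untreated clone and 10.74 to 11.63 after ATRA (2.57 ± 0.24, 5.92-fold, adjusted p = 0.00104). ID1 rose by 1.39 and ID3 by 1.73, and the inhibitory SMAD6 by 1.35. Of the 27 genes of the list 18 were below 0, against 45% of all genes, and the median was -0.32. The list held 4 higher genes (14.8%, against 1.05% of all genes). It held 2 lower genes (7.41%, against 2.75%), TGFB2 and the coreceptor TGFBR3 (-1.14). Without either 10 μM array 2 were higher, without any 1 treated array 1 was lower, and without MCF-10F replicate 2 there were 5 lower. Of 41 Wnt genes WNT5A (-2.06) and the inhibitor DKK1 (-1.54) were lower (4.88%), 1 of them when all 8 arrays were fitted. WNT5A had a mean of 7.97 in the untreated clone and 8.58 in the treated arrays. DKK1 read 13.04 and 12.03 in MCF-10F, 9.42 and 7.38 in the untreated clone and 10.86 to 11.11 after ATRA, which lay between the other groups. IRS1, the docking protein of the insulin and IGF1 receptors, read 9.92 and 10.55 in MCF-10F, 6.69 and 6.80 in the untreated clone and 5.14 to 5.65 after ATRA (-4.74 ± 0.21, 26.8-fold, adjusted p = 4.4e-05). Among 14 genes of IGF binding IGFBP6 was higher, and STC1 (-1.99) and the protease PAPPA (-1.01) were lower. In the untreated clone PAPPA read 4.93 and 5.15, against a mean of 8.99 in the treated arrays, a contrast that was not tested. Of 11 PAPPA probe sets 2 passed. STC1 differed by -2.73 and -1.26 without MCF-10F replicates 1 and 2, and PAPPA did not hold without 10 μM replicate 2, either 1 μM array or MCF-10F replicate 2. Betacellulin (BTC), a ligand of EGFR, rose by 1.79 ± 0.11 (3.46-fold, adjusted p = 0.00016) from 7.10 and 7.02 to between 8.71 and 8.94, with the untreated clone at 5.09 and 5.89. It was the 1 gene called among 13 receptors and ligands of the ERBB family, in which EGFR and ERBB2 differed by 0.05 and 0.21 and EREG by 1.26 (adjusted p = 0.0541; 0.52 without MCF-10F replicate 1, under 2-fold, and past the test without replicate 2), and without MCF-10F replicate 2 there were 3 genes called. Of 28 HOX genes HOXA2 alone was higher (3.57% of the list, by 1.20), and it did not pass when all 8 arrays were fitted.

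All 23 measured p53 targets were below their MCF-10F mean, 8 of them past the test (34.8%), with a median of -0.67; of all genes 45% were below 0, and of the 9010 genes with a mean log2 signal of at least 7, 44.5%. The cell cycle inhibitor p21 (CDKN1A) read 10.86 and 10.74 in MCF-10F, 9.76 and 9.39 in the untreated clone, 9.35 and 8.23 at 1 μM and 9.47 and 8.34 at 10 μM. The groups were apart, and replicate 1 was the higher treated array at each dose (-1.95 ± 0.36, 3.87-fold, adjusted p = 0.0146). TP53I3 read 12.01 and 11.22 in MCF-10F, 8.22 and 8.12 in the untreated clone and 9.58 to 10.07 after ATRA. TIGAR, which lowers glycolysis, read 9.84 and 9.82, then 3.62 and 5.09 in the untreated clone and 8.08 to 8.51 after ATRA. For TP53I3 and TIGAR the treated arrays lay between the untreated clone and MCF-10F. ZMAT3 (-1.46), RRM2B (-1.46), the death effector BAX (-1.79), PLK2 (-1.52) and TP53INP1 (2.83-fold) were lower as well. The p53 inhibitor MDM2, itself a target, differed by -0.67 (adjusted p = 0.0215, under 2-fold), and FAS by -0.06. The count was 5 without MCF-10F replicate 2, 10 μM replicate 2 or 1 μM replicate 2, 4 when all 8 arrays were fitted or the groups weighted by their spread, 3 with signals under 16 raised to 16, and 1 with either dose alone. Of 37 growth arrest genes 3 were lower, CDKN1A, KLF4 (-1.28) and GAS1, and without MCF-10F replicate 1 there were 5; none passed with either dose alone or with signals under 16 raised to 16. GAS1 did not pass without MCF-10F replicate 1 (adjusted p = 0.0513) or 1 μM replicate 1 (0.0509). For it the brightest of 3 probe sets differed by -1.81 and the other two by 0.10 each without passing, so its direction depends on the probe set.

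In DNA replication 2 genes passed the test and in mitosis 1, and the level of both lists relative to MCF-10F depended on the MCF-10F array. Of 36 replication genes 30 differed by more than 0, with a median of 0.41. The 2 that passed (5.56%, against 1.05% of all genes higher) were GINS3 (1.46) and CDT1 (1.08). Of 35 mitotic genes 29 differed by more than 0, with a median of 0.23, and 1 passed (2.86%). Over all genes 45% were below 0. MKI67, the common marker of cycling cells, passed (1.03) by the brightest of its 4 probe sets. Its other probe sets differed by 0.58 to 0.70, under 2-fold. The MCF-10F arrays differed here: their mean log2 signals over the replication genes were 9.87 and 9.28, against at least 9.92 in the treated arrays, and over the mitotic genes 10.86 and 10.21 against 10.77 to 10.80, between the MCF-10F arrays. MCF-10F replicate 2 was the lower of the pair on both lists. Without replicate 1 there were 8 replication and 7 mitotic genes higher, and without replicate 2 there were 1 and 0; with either dose alone none passed on either list. The medians were 0.75 and 0.57 without replicate 1, and 0.09 and -0.05 without replicate 2.

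Of 28 hypoxia and glycolysis genes 5 were lower, ALDOC, BNIP3, EGLN3, PDK1 and PFKFB4. In that list 23 were below 0, against 45% of all genes. The median was -0.37 (-0.14 without MCF-10F replicate 2, -0.59 without probe sets that share targets). BNIP3, a mitophagy receptor, read 11.57 and 12.38 in MCF-10F, 11.96 and 12.31 in the untreated clone and 10.16 to 10.51 after ATRA. The treated arrays lay below both untreated lines, by -1.56 ± 0.22 relative to MCF-10F (adjusted p = 0.00531). EGLN3, a prolyl hydroxylase that marks HIF for destruction, read 6.74 and 8.53 in MCF-10F and 5.27 to 5.51 after ATRA (-2.28; -3.18 and -1.39 without replicates 1 and 2). The count was 9 without MCF-10F replicate 1, 3 without replicate 2 or with all 8 arrays fitted, and 0 with either dose alone. Of 20 genes of cholesterol and fatty acid synthesis 4 were lower, the synthase HMGCS1 (-1.18), FDPS (-1.07), the sterol carrier STARD4 (-1.62) and the sterol sensor INSIG1 (-1.27). STARD4 read 9.69 and 9.98 in MCF-10F and 8.01 to 8.45 after ATRA. Of the 20, 17 were below 0, against 45% of all genes. The median was -0.54 (-0.25 and -0.83 without MCF-10F replicates 1 and 2).

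**Figure D4:**
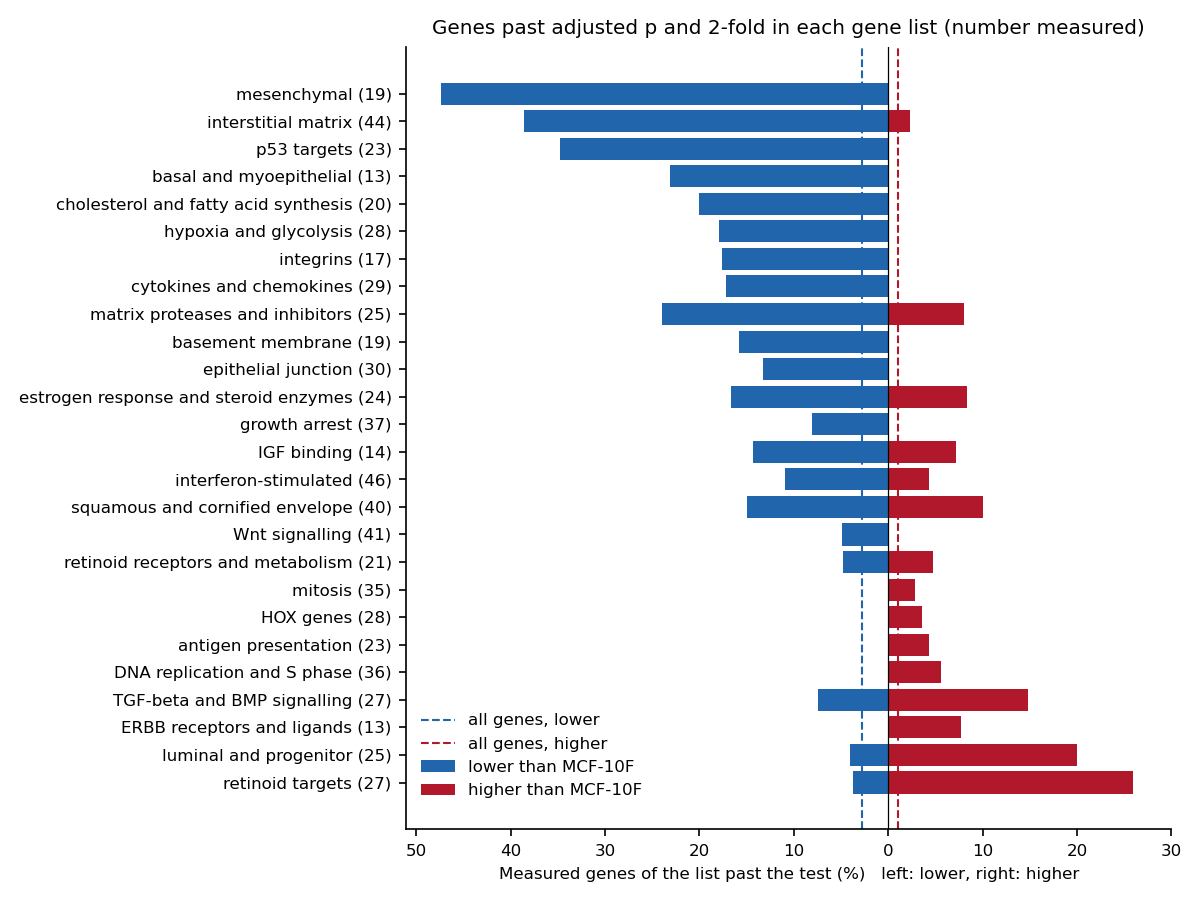
Share of the measured genes of each list that passed the adjusted p and 2-fold, lower (blue, to the left) and higher (red, to the right); the number measured is in brackets and the dashed lines mark 2.75% and 1.05% of all genes. The mesenchymal list has the largest share lower (47.4%) and the retinoid targets the largest share higher (25.9%).

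Genes of the X chromosome were lower as a body. Of 696 genes placed there 61 were lower (8.76%, against 2.75% of all genes) and 1 was higher (0.144%), so that 11.2% of the 544 lower genes lie on the X against 3.54% of all placed genes. Among genes with a mean log2 signal of at least 7 over the 6 arrays, the 248 on the X had a median difference of -0.53 and 226 of them (91.1%) were below 0, whereas the 8750 on autosomes had a median of 0.06 and 43.2% were below 0. The shift ran along the whole chromosome: in 4 equal stretches, taken by gene order, the medians were -0.43, -0.44, -0.72 and -0.49. The next lowest chromosomes were 14 (-0.24), 4 (-0.18) and 15 (-0.12), and the highest were 5 (0.31), 7 (0.27) and 19 (0.26).

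On single arrays, X genes minus autosomal genes (medians of log2 signals relative to the 6-array mean) gave 0.386 and 0.377 in MCF-10F, -0.194 and -0.191 at 1 μM and -0.186 and -0.197 at 10 μM. The untreated clone gave -0.137 and -0.160, on the same side as the treated arrays. The 4 treated arrays were close to each other, and the means of the groups differed by -0.57. An exact permutation test over the 15 splits of the 6 arrays cannot give a two-sided p under 0.0667, so these values stand as a description. Runs of neighbours on the X were ARMCX6 (-1.73), ARMCX3 (-1.21) and ARMCX2 (-2.64), which encode armadillo-repeat proteins; ATG4A (-1.19), an autophagy protease, with the paired collagen genes COL4A6 and COL4A5; and PRRG1 (-1.14), LANCL3 (-1.05; under 2-fold without MCF-10F replicate 2) and XK (-1.28). ARMCX2 read 6.57 and 6.69 in MCF-10F, 3.97 and 3.67 in the untreated clone and 3.68 to 4.41 after ATRA. SRPX, a matrix protein gene on the X, fell by 5.44 from 9.98 and 8.89 to between 3.83 and 4.24, with the untreated clone at 4.14 and 3.81. COL4A6 read 9.86 and 10.04 in MCF-10F, 9.78 and 9.66 in the untreated clone and 8.13 to 8.64 after ATRA, so that it was near the MCF-10F level before ATRA, unlike ARMCX2 and SRPX.

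**Figure D5:**
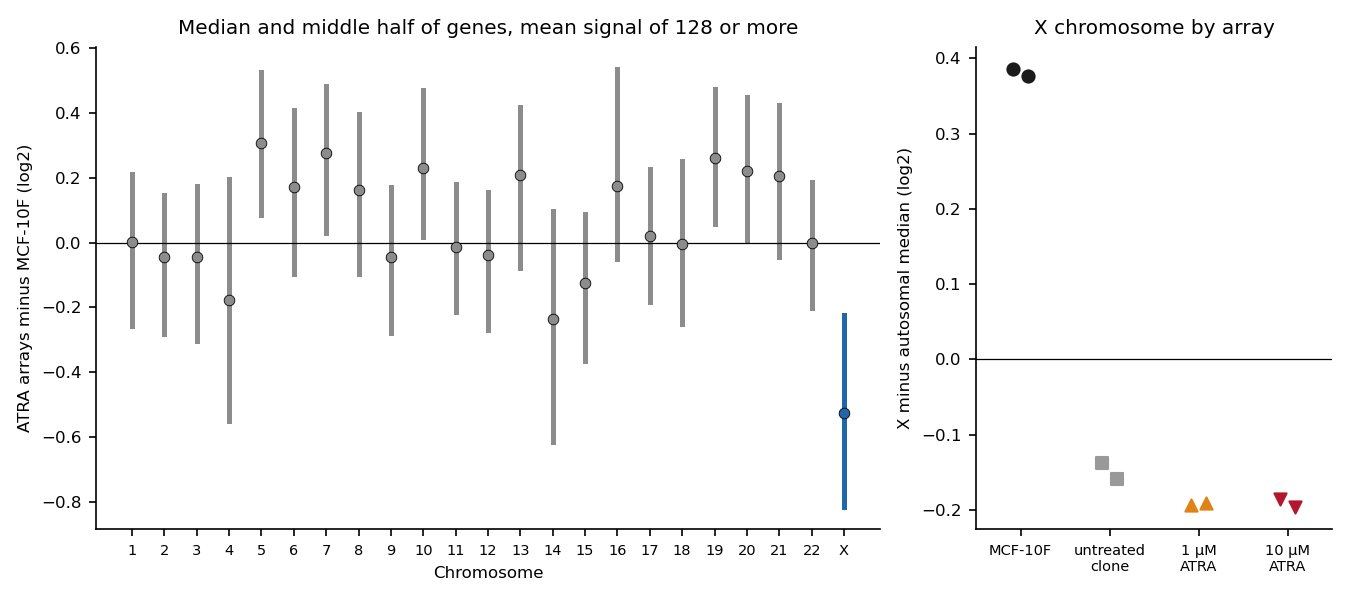
Left, the median (point) and interquartile range (bar) of the log2 difference between the treated arrays and MCF-10F for genes with a mean log2 signal of at least 7, by chromosome; right, the median of X genes minus that of autosomal genes on each array. The X chromosome has the lowest median (-0.53), and the 4 treated arrays lie at -0.186 to -0.197 against 0.377 and 0.386 in MCF-10F.

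Markers of the cell types the cultures could hold gave little signal apart from the breast epithelial ones. The 6 markers of a breast epithelial line averaged 12.17 to 12.88 in MCF-10F and 10.99 to 11.64 in the treated arrays, and KRT14 was the 1 lower member. Of 6 endothelial markers none passed, and KDR and CDH5 read at most 4.51 in the 6 arrays. PECAM1, in contrast, read 6.73 and 10.05 in the MCF-10F arrays and 9.22 to 10.21 after ATRA. CD14, on the blood and immune list, read 5.62 and 8.65 against 8.77 to 9.37. CD3E read 5.85 to 6.23 over the 6 arrays and did not pass, and PTPRC (3.31 to 3.85) was near the lower end. Neither PECAM1 nor CD14 passed with both MCF-10F arrays; both passed without replicate 2 (2.94 and 3.47), and without replicate 1 the differences were -0.38 (adjusted p = 0.535) and 0.43 (adjusted p = 0.251). None of the 5 adipocyte and 3 melanocyte markers passed, and ADIPOQ read at most 3.25. The part of such cells in the results above was not tested.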

How the data were processed

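RNA from 8 samples was hybridised to Affymetrix U133 Plus 2.0 arrays, 2 in each of 4 groups. The authors summarised the probes to 1 signal per probe set, corrected the background and scaled the arrays; the deposited values are intensities on a linear scale. Both MAS 5.0 global scaling and Iterative Plier 16 appear in the methods, and no source used here ties either to the deposited values. Single-probe values and detection calls were not used here. Global scaling sets the arrays to 1 level, so a change in total RNA per cell would not be seen, and dim probe sets are the least precise.

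Signals were put on the log2 scale as deposited. After removal of 62 controls from 54675 probe sets, 54613 were tested; 41091 named 1 gene, 1801 several and 11721 none in the platform annotation given here. The 19775 genes are each shown by the probe set that names that gene alone and has the highest mean log2 signal over the 8 arrays. Gene order and chromosomes come from RefSeq (GRCh38.p14), which placed 19687 genes; promoters come from RefSeq too, for 15384 of the tested genes. The test was limma's moderated one (limma 3.58.1, R 4.3.3; lmFit and eBayes, 1 mean for the 4 treated and 1 for the 2 MCF-10F arrays, 4 residual and 3.87 prior degrees of freedom). Pandas 2.3.3 and matplotlib 3.10.9 were used under Python 3.11.15. The analysis was tested on simulated data. Precision is limited by how few arrays there are.

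The members and lists were chosen with earlier results of these data known. Genes are named by rule: of called genes without overlap of the groups and with a mean log2 signal of at least 7 in the brighter group, the 14 largest differences in each direction; from each list, up to 4 members by smallest p; 17 fixed markers; and runs of at least 3 neighbouring called genes. Other members are named where a count or its exceptions called for it, after their values were seen, as was the choice of the NF-κB letters. Genes of a list without a probe set that names them alone were not analysed here. Alternatives were an unadjusted p, no fold limit, all 8 arrays, 1 mean per dose, each dose alone, array weights, quantile normalization, leaving out the dimmest 33.3% of signals, a floor of 16, a trend with a robust prior, the replicate number as a block, probe sets without shared-target suffixes, the mean over a gene's probe sets each array left out in turn and, added after the values were seen, the average of same-numbered treated arrays.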

Additional observations from a re-analysis of the deposited data

Results flagged for a closer look

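Among the 4 treated arrays, 1 array stood apart from the other 3 in 7 of 168 named genes by Dixon's ratio (the gap to the nearest array over the whole range, judged against its 95% limit for 4 arrays); chance alone sets about 1 in 20 groups apart. The ratios were 0.857 for LINC03125 (8.77 to 9.14), 0.878 for BBOX1 (3.35 to 3.47), 0.849 for IRS1 (5.14 to 5.65), 0.845 for FBN1 (6.15 to 6.51), 0.841 for ITGA6 (10.83 to 11.05), 0.936 for BNIP3 (10.16 to 10.51) and 0.904 for HOXB2 (8.19 to 8.38). In each the range over the treated arrays was at most 0.51 on the log2 scale, and in the 6 of these genes that passed the test no treated array overlapped the MCF-10F arrays. The call used the same arrays and makes such a lack of overlap likely.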

How the results depend on the processing

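The direction of the lower-heavy split held in every alternative run, with 52.7 to 74.5% of called genes lower, but the counts moved. With the adjusted p and no fold limit 1208 genes were higher and 1344 lower; with the 1 μM arrays alone 89 and 199; with the 10 μM arrays alone 92 and 261; with signals under 16 raised to 16, 134 and 284. Leaving out each array in turn gave 176 to 352 higher genes (344 without MCF-10F replicate 1 and 352 without replicate 2, each of which leaves 1 MCF-10F array that is assumed to vary like the treated ones) and 440 to 712 lower genes. Deviations of same-numbered arrays correlated 0.595 between the doses, and -0.0612 and 0.0672 with MCF-10F, so the numbers were not taken to pair all groups; the fit with the replicate block gave 216 higher and 557 lower genes, and with same-numbered treated arrays averaged, an alternative chosen after seeing the data, 81 and 206. The difference between X and autosomal medians, -0.59, was -0.12 over genes of every level and -0.60 to -0.57 with each array left out. GAS1, at -1.81, was 0.10 in probe sets without shared-target suffixes. Over all named genes and alternatives, 3248 of 3645 values kept direction and side of the threshold, 360 lost the call, 36 gained it and 1 reversed. The cause was not tested. Near background, where a group had a mean signal under 16, the size of a difference is not reliable.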
